A study of Mus musculus with 6 samples.

Results

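The Kruppel-like factors (KLF proteins) are transcription factors, and the account here covers 10 of their genes in mouse bone marrow-derived macrophages: Klf2, Klf3, Klf4, Klf6, Klf7, Klf9, Klf10, Klf11, Klf13 and Klf16. They were picked by gene symbol from a table of 25124 genes, with earlier results of these data known. Each of the 10 had exactly 1 entry there, and all 10 passed the filter on low values that left 11235 genes for testing. The 7 other KLF genes were under 1 TPM in every library, so this passing is not a result. In the M2 group, macrophages received 10 ng/ml IL-4 together with 20 ng/ml M-CSF for 4 h. In the M0 group they stayed in 20 ng/ml M-CSF alone for the same 4 h. All the cells were grown from marrow of wild-type C57BL/6 mice aged 8 weeks over 7 days in 20 ng/ml M-CSF, the growth factor that drives marrow cells into macrophages, and IL-4 is a cytokine that drives them to the alternatively activated state. RNA sequencing of polyadenylated RNA gave 3 libraries per group. The labels do not say whether the libraries of a group came from separate animals or cultures, so each p-value measures the spread between these libraries, which may be technical.

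KLF proteins bind GC-rich DNA, such as GC boxes and CACCC boxes, through zinc fingers at their C-terminal end, and they differ mostly in the N-terminal part that recruits cofactors. KLF2, KLF4, KLF6 and KLF7 carry acidic activation domains, KLF3 recruits the corepressor CtBP, and KLF9, KLF10, KLF11, KLF13 and KLF16 recruit the SIN3 histone deacetylase complex. In mouse macrophages KLF4 is known to be induced by IL-4 and to cooperate with STAT6, the transcription factor that IL-4 activates. KLF2 is known there as a restraint on inflammatory genes, and KLF6 as a partner of inflammatory gene expression.

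The libraries held 16986733, 17431996 and 19019896 recovered reads in M2 and 18265897, 18624197 and 16913185 in M0. The M2 libraries differed from each other by little more than counting noise, their paired chi-square over genes being 1.54 to 1.73 for each degree of freedom. M0 replicate 2 stood apart from the other M0 libraries, with values of 9.52 and 10.7, while pairs across the groups gave 119 to 146. The macrophage markers were all detected and tested, and their summed level, most of it Lyz2, ran from 15189 to 15567 TPM in M2 and from 16395 to 17546 TPM in M0. Of the 8, 3 were higher, 4 lower and 1 did not pass, and after the median scaling described below 4 were higher and 2 lower. Fcgr1 averaged 20.6 ± 1.05 TPM in M2 and 128 ± 7.55 TPM in M0, Cd14 averaged 65.4 ± 1.63 TPM in M2 and 158 ± 3.83 TPM in M0, and Csf1r averaged 912 ± 1.97 TPM in M2 and 674 ± 11.8 TPM in M0 (SD, n = 3). Neutrophil markers summed to 27.9 to 35.3 TPM in M2 and 30.2 to 37.6 TPM in M0, and 0 of the 4 tested passed. Every listed mast cell and basophil, T and NK cell, and erythroid marker found in the table was under 1 TPM in every library, and 3, 0 and 6 of them were at 0 in all libraries. Of the B cell markers only Cd79b was tested, at 1.24 ± 0.186 TPM in M2 and 1.71 ± 0.0911 TPM in M0 (SD, n = 3), and its lower call was lost after scaling (adjusted p = 0.13). Endothelial and stromal markers summed to 17.6 to 18.4 TPM in M2 and 12.8 to 13.9 TPM in M0. Most of the M2 sum was Pecam1, which averaged 10.4 ± 0.198 TPM in M2 and 0.407 ± 0.0386 TPM in M0. Kdr averaged 0.218 ± 0.037 TPM in M2 and 2.78 ± 0.249 TPM in M0 (SD, n = 3). Of the 4 tested, Pecam1 was higher in M2 and Kdr, Col1a1 and Col1a2 were lower, with the Col1a2 call lost after scaling (adjusted p = 0.26). Another 4 were under 1 TPM in every library, and none was at 0 in all of them. The part of these marker differences in the KLF differences was not tested.

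Levels are in the deposited TPM, which scale the reads of a library by transcript length. Over the 25124 genes these values summed to 542749 to 543854 in the M2 libraries and to 548160 to 553186 in the M0 libraries. They are therefore not shares of a fixed total. Changes are log2 fold changes of TPM + 1, M2 over M0, from limma's moderated test across all tested genes, and passing means an adjusted p (Benjamini-Hochberg, over all of them) under 0.05. The median change of all tested genes was -0.15 on the log2 scale. Median scaling, which divides each library by its median ratio to the libraries' geometric mean, all but fixes this median by design, here at 0.00. Calls were therefore read on both scales. In the TPM as deposited, 17.7% of tested genes were higher and 45.3% lower in M2. After median scaling, 28.8% were higher and 28.2% lower.

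IL-4 was followed by changes in both directions among the KLF genes. Klf9 was 8.57-fold and Klf4 3.17-fold higher in M2 by mean TPM, Klf13 rose slightly, and Klf6, Klf10, Klf7, Klf3 and Klf16 were lower by 1.74-fold or less. Klf2 and Klf11 did not pass the test. In the TPM as deposited, 3 of 10 genes were higher (background 17.7%) and 5 of 10 lower (background 45.3%), 8 of 10 in all (background 62.9%). After median scaling, 4 of 10 were higher (background 28.8%), with Klf2 added, and 3 of 10 lower (background 28.2%), namely Klf6, Klf7 and Klf10, 7 of 10 in all (background 56.9%). The median change of the 10 genes was -0.09 as deposited and 0.05 after scaling, and their median absolute change was 0.37, against 0.27 over all tested genes. A rise of at least 1 on the log2 scale was met by 2 of 10 KLF genes, Klf4 and Klf9, and by 3.35% of all tested genes. A fall of that size was met by 0 of 10 and by 4.61% of all tested genes. The 3 M2 values as deposited all lay above the 3 M0 values for 3 of the 10 genes and for 19.6% of all tested genes. They all lay below the M0 values for 5 of the 10 and for 49.8% of all tested genes. This separation was not counted after scaling. In bulk RNA such as this, fewer cells of a type and less RNA per cell cannot be told apart.

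**Figure D1:**
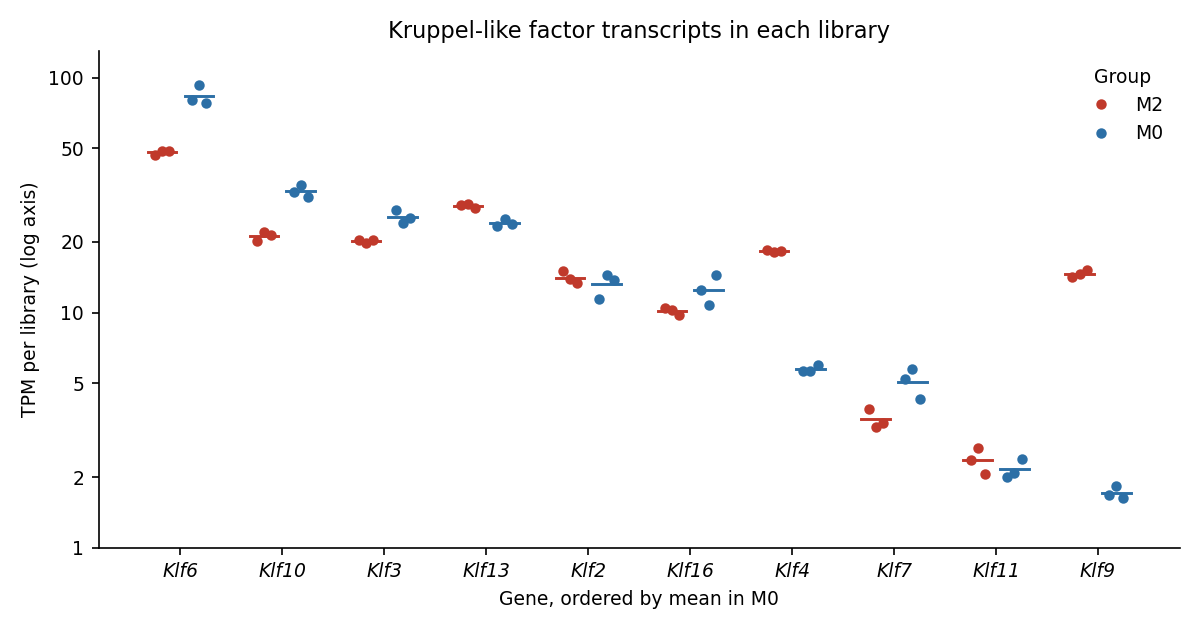
TPM of each KLF gene (log axis) in the 3 M2 libraries (red) and the 3 M0 libraries (blue), ordered by the M0 mean; points are libraries and bars are group means. Klf9 and Klf4 show the widest gaps with M2 above M0, Klf6 shows the widest with M2 below M0, and the groups overlap only for Klf2 and Klf11.

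Promoter windows from RefSeq (GRCm38.p6, the mm10 assembly), each running from 250 bases before to 50 bases after the annotated start, were found for 8 of the 10 genes and not for Klf10 and Klf16. They are shown for the genes with the largest rises and the largest fall, and for Klf2, whose promoter is known for a MEF2 site. Each is written 5′ to 3′ on the gene's own strand. Capitals mark, in Klf9, the CACCC box and the match to the STAT pattern TTCNNNGAA, which begins 33 bases before the start. In Klf4 and Klf6 they mark GC boxes (GGGCGG or its complement), and in Klf2 a match to the MEF2 consensus that begins 118 bases before the start.
Klf9, chr19:23140976-23141275, plus strand: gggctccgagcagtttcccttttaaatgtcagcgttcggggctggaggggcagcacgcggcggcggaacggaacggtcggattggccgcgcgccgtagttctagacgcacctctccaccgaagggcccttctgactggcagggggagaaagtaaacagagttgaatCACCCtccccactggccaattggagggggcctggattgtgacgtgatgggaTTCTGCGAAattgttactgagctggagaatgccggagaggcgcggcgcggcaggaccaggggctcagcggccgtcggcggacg
Klf4, chr4:55532426-55532725, minus strand: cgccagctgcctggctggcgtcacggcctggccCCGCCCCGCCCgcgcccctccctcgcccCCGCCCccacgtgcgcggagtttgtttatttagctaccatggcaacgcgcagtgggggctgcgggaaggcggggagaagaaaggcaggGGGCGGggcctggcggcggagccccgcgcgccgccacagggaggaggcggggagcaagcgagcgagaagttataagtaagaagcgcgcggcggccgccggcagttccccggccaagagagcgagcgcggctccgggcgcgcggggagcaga
Klf6, chr13:5861239-5861538, plus strand: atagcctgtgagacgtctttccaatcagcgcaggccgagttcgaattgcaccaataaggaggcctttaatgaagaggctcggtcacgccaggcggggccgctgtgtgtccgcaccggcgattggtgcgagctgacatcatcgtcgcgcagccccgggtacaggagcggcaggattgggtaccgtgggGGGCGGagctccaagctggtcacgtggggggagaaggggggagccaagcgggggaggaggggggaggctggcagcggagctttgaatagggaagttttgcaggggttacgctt
Klf2, chr8:72318812-72319111, plus strand: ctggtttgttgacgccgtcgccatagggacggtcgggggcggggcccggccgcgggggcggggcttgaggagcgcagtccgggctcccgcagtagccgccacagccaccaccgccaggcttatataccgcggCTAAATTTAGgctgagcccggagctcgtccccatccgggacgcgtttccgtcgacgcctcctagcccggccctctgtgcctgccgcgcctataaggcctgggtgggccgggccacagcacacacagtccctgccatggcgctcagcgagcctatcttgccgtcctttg

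A GC box or a CACCC box, the letters that the KLF proteins themselves are known to bind, was present in 8 of the 8 KLF windows and in 84.5% of the windows of tested genes. Motifs were searched on both strands, and matches to different patterns may overlap. GGGCGG was present in 7 of 8 windows, all but that of Klf9, and in 63.0% of the windows of tested genes. CACCC was present in 5 of 8 and in 62.4% of the windows of tested genes. The window of Klf3 held 6 GC boxes and 5 CACCC boxes, that of Klf4 4 GC boxes, that of Klf6 1 GC box, and that of Klf9 1 CACCC box. Their GC content ran from 58.3% to 77.7%, with a median of 60.7% over the windows of tested genes. TTCNNNGAA was present in Klf9 alone among the 8, and in 6.79% of the windows of tested genes. The STAT6 consensus, whose spacer is longer by 1 base, had no match in the 8 windows and was present in 5.49% of the windows of tested genes. The MEF2 consensus was matched in Klf2 alone, against 1.47% of the windows of tested genes. The E-box CACGTG was present in Klf4, Klf6 and Klf11, against 10.5%. The cyclic AMP response element TGACGTCA (3.07%), the CArG box (1.20%) and the glucocorticoid response element (0.233%) had no match in the 8 windows. A match describes letters within 300 bases and is not a binding site by itself.

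Klf9 encodes a small SIN3-recruiting repressor known in other mouse tissues as a direct target of the glucocorticoid and thyroid hormone receptors. It lies on chromosome 19 at 23141226-23168128, plus strand, in mm10, and its deposited transcript of 4476 bases has 2 exons. Its level was 14.2, 14.6 and 15.2 TPM in M2 libraries, against 1.68, 1.83 and 1.63 TPM in M0 libraries. Every M2 library was far above every M0 library, and both groups were narrow. The reads behind these values were 933, 978 and 1116 in M2 and 115, 124 and 104 in M0. The change was 2.53 on the log2 scale (SE 0.07, adjusted p = 9.8e-10, limma), the 69th largest rise of 11235 tested genes. Its mean level stood at percentile 54.6 of tested genes in M2 and 7.34 in M0. The added 1 TPM shrinks a change from so low a level, and across the alternative settings the Klf9 change ran from 1.55 to 3.15. It was 2.56 without M0 replicate 2.

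Klf4 encodes the activator known in mouse macrophages as a STAT6 partner, and outside them as a factor for epithelial differentiation and reprogramming. Its locus is on chromosome 4 at 55527137-55532475, minus strand, with 5 exons and 3037 bases. Klf4 had 18.4, 18.1 and 18.3 TPM in M2 libraries, against 5.64, 5.66 and 5.97 TPM in M0 libraries. The groups lay far apart, and within each the 3 libraries nearly coincided, with an SD of 0.168 TPM in M2 and 0.184 TPM in M0. The change was 1.51 on the log2 scale (SE 0.06, adjusted p = 1.2e-08), the 184th largest rise, and leaving out M0 replicate 2 moved it by less than its SE. After median scaling it was 1.67.

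Klf2 encodes the closest relative of KLF4 in sequence and is known for keeping T cells and monocytes quiescent. The gene is on chromosome 8 at 72319062-72321654, plus strand, with 3 exons and 1811 bases. Klf2 had 15.0, 13.9 and 13.4 TPM in M2 libraries, against 11.5, 14.4 and 13.7 TPM in M0 libraries. The groups overlapped, and M0 replicate 1 was the lowest of the 6 libraries. The change was 0.09 (95% interval -0.10 to 0.28, adjusted p = 0.35). Klf2 passed after median scaling, at 0.25 (SE 0.08, adjusted p = 0.021), and its change was 0.00 without M0 replicate 1. The Klf4 to Klf2 ratio of TPM was 1.30 ± 0.0657 in M2 and 0.440 ± 0.0496 in M0 (SD, n = 3), so that Klf4 exceeded Klf2 in M2 and stood below it in M0.

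Klf6 encodes an activator with broad expression, known from liver stellate cells after injury and, in mouse macrophages, from inflammatory gene expression. Its position is chromosome 13 at 5861489-5870393, plus strand, with 4 exons and 4211 bases. Klf6 had 46.7, 48.9 and 48.8 TPM in M2 libraries, against 80.0, 92.7 and 78.2 TPM in M0 libraries. All M2 libraries were below all M0 libraries, and the highest M0 value was that of replicate 2. The change was -0.78 (SE 0.06, adjusted p = 2.6e-06), a 1.74-fold lower mean and the 917th largest fall of 11235. It was -0.71 without M0 replicate 2 and -0.61 after median scaling.

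Klf7 encodes the relative of KLF6 known for neuronal outgrowth. The locus is on chromosome 1 at 64035671-64121389, minus strand, with 4 exons in the matched GENCODE transcript. Klf7 had 3.90, 3.26 and 3.39 TPM in M2 libraries, against 5.21, 5.76 and 4.31 TPM in M0 libraries, from 65 to 76 reads per library in M2 and 82 to 116 in M0. The groups did not overlap, though M2 replicate 1 and M0 replicate 3 came close. The change was -0.43 (SE 0.10, adjusted p = 0.0045), and -0.29 (adjusted p = 0.029) after median scaling. The deposited Klf7 transcript is 1330 bases long, 17.4% of the longest coding Klf7 transcript of GENCODE. The GENCODE transcript matched to Klf7 shares 2815 exon bases with the opposite-strand gene Gm26649, more than the 1330 bases deposited. It therefore differs from the deposited transcript, whose own overlap was not measured. The Klf7 level holds for the deposited transcript only, and whether its reads include antisense ones is not known.

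Klf3 encodes the CtBP-recruiting repressor of the family, known in mice for roles in B cells, fat and red cells. It lies on chromosome 5 at 64803523-64830129, plus strand, with 6 exons in the matched GENCODE transcript. Klf3 had 20.3, 19.8 and 20.5 TPM in M2 libraries, against 27.2, 24.1 and 25.3 TPM in M0 libraries. All M2 libraries were below all M0 libraries. The change was -0.32 (SE 0.06, adjusted p = 0.0008), and after median scaling it was -0.16 and missed the threshold (adjusted p = 0.054). The deposited Klf3 transcript of 2306 bases is 44.2% of the longest coding one. In the matched GENCODE transcript, 404 exon bases overlap the opposite-strand gene Gm20033.

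Klf10 and Klf11 encode a closely related pair, named TIEG for their induction by TGF-beta. Klf10 lies on chromosome 15 at 38294406-38300711, minus strand, with 4 exons and 3050 bases. Klf10 had 20.2, 22.1 and 21.3 TPM in M2 libraries, against 32.5, 34.8 and 31.1 TPM in M0 libraries. The groups were well apart. The change was -0.60 (SE 0.06, adjusted p = 1.1e-05), a 1.55-fold lower mean, and -0.44 after median scaling. Klf11 lies on chromosome 12 at 24651371-24662782, plus strand, with 4 exons and 3976 bases. Klf11 had 2.35, 2.67 and 2.06 TPM in M2 libraries, against 2.01, 2.08 and 2.39 TPM in M0 libraries. These groups overlapped, and the change was 0.09 (95% interval -0.13 to 0.30, adjusted p = 0.45). After median scaling Klf11 stood at 0.21 (adjusted p = 0.096).

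Klf13 encodes a SIN3-recruiting factor known in T cells as an activator of the chemokine gene Ccl5. It lies on chromosome 7 at 63886351-63938915, minus strand, with 2 exons and 6392 bases. Klf13 had 28.6, 29.1 and 27.8 TPM in M2 libraries, against 23.3, 25.1 and 23.9 TPM in M0 libraries. All M2 libraries were above all M0 libraries by a small margin, and the change was 0.23 (SE 0.05, adjusted p = 0.003). After median scaling it was 0.40 (adjusted p = 6.4e-05). The reads behind Klf13 were the most of any KLF gene but Klf6, with 8376 over the M2 libraries and 6890 over the M0 libraries.

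Klf16 encodes a SIN3-recruiting repressor first described in the brain, where it acts on dopamine receptor genes. It lies on chromosome 10 at 80567121-80577296, minus strand, with 2 exons and 2648 bases. Klf16 had 10.5, 10.3 and 9.74 TPM in M2 libraries, against 12.4, 10.8 and 14.4 TPM in M0 libraries. The groups did not overlap, but M0 replicate 2 was close to the M2 values. The change was -0.27 (SE 0.09, adjusted p = 0.028). The Klf16 call was lost in 9 of 14 alternatives, among them median scaling (-0.11, adjusted p = 0.37) and leaving out any library other than M0 replicate 2. The change was -0.17 (adjusted p = 0.096) without M0 replicate 3 and -0.37 (adjusted p = 0.0019) without M0 replicate 2.

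**Figure D2:**
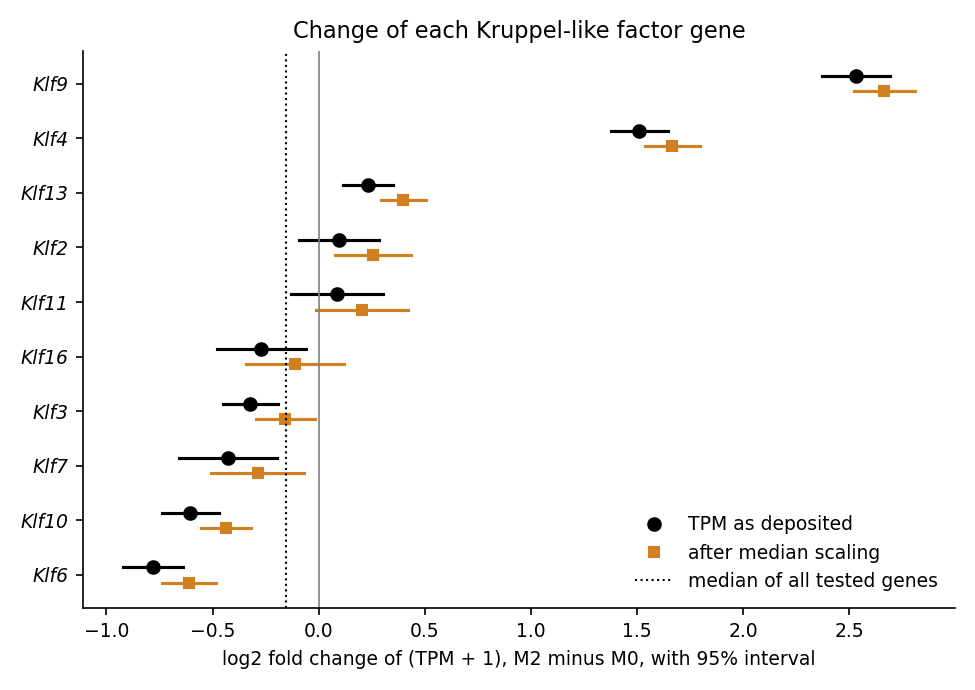
Log2 fold change of TPM + 1, M2 minus M0, of each KLF gene with its 95% interval, in the TPM as deposited (black circles) and after median scaling (orange squares); the dotted line is the median of all tested genes, at -0.15. Klf9 and Klf4 stand at 2.53 and 1.51, Klf6 and Klf10 at -0.78 and -0.60, and scaling moves every gene upward.

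By known cofactor, the genes moved in mixed directions. Of the genes for activators, Klf4 rose, Klf6 and Klf7 fell, and Klf2 depended on the scaling. The gene for the CtBP-recruiting member, Klf3, fell before scaling. Of the genes for SIN3-recruiting members, Klf9 and Klf13 rose, Klf10 and Klf16 fell, with the Klf16 fall lost after scaling, and Klf11 did not pass.

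The authors' deposited table of the comparison, made on the same transcript for all 10 genes, gave log2 fold changes of 3.23 for Klf9 (adjusted p = 1.54e-187) and 1.82 for Klf4 (adjusted p = 1.32e-81). In the authors' deposited table, Klf13 had 0.41 (adjusted p = 2.23e-12), Klf6 -0.62 (adjusted p = 1.06e-23) and Klf10 -0.45 (adjusted p = 7.37e-10). Klf2 passed in the authors' deposited table at 0.26 (adjusted p = 0.0416). Klf3 (-0.17), Klf7 (-0.35), Klf16 (-0.13) and Klf11 (0.29) did not pass in the authors' deposited table, with adjusted p = 0.0942, 0.158, 0.381 and 0.162.

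TPM is a per-length unit, so the KLF genes can also be ranked within a group by level. The deposited Klf7 and Klf3 transcripts were 17.4% and 44.2% of their longest coding ones. The ranks of these genes, and their part in the summed level, hold for those transcripts only. In M2, Klf6 was highest at 48.1 ± 1.28 TPM (SD, n = 3), followed by Klf13, then Klf10 and Klf3, whose ranges overlapped, then Klf4. Klf9 and Klf2 came next with overlapping ranges, then Klf16, Klf7 and Klf11 at 2.36 ± 0.305 TPM. In M0, Klf6 was highest at 83.6 ± 7.87 TPM, followed by Klf10, then Klf3 and Klf13, whose ranges overlapped. Klf2 and Klf16 overlapped next, Klf4 and Klf7 overlapped after them, and Klf11 and Klf9 were lowest, Klf9 at 1.71 ± 0.107 TPM. The lowest gene in M0, Klf9, was thus the sixth in M2.

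The summed level of the 10 genes was 181 ± 1.37 TPM in M2 and 207 ± 9.25 TPM in M0 (SD, n = 3). Its range was 180.1 to 182.7 TPM in M2 and 201 to 217 TPM in M0, the highest being M0 replicate 2. After median scaling the sum was 192 ± 1.30 in M2 and 194 ± 4.16 in M0, and the ranges, 191.1 to 193.4 in M2 and 191.5 to 198.9 in M0, overlapped. Klf6 made up 26.6% ± 0.592 of the sum in M2 and 40.4% ± 1.97 in M0. Klf9 took 8.10% ± 0.280 in M2 and 0.828% ± 0.0178 in M0, and Klf4 took 10.1% ± 0.168 in M2 and 2.79% ± 0.182 in M0. Klf13 took 15.7% ± 0.276 in M2 and 11.7% ± 0.211 in M0. The Klf6 to Klf4 ratio was 2.64 ± 0.0906 in M2 and 14.6 ± 1.67 in M0. The Klf9 to Klf16 ratio was 1.44 ± 0.104 in M2 and 0.139 ± 0.0288 in M0. These shares and ratios are descriptions and were not tested, and they do not depend on how libraries are scaled.

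**Figure D3:**
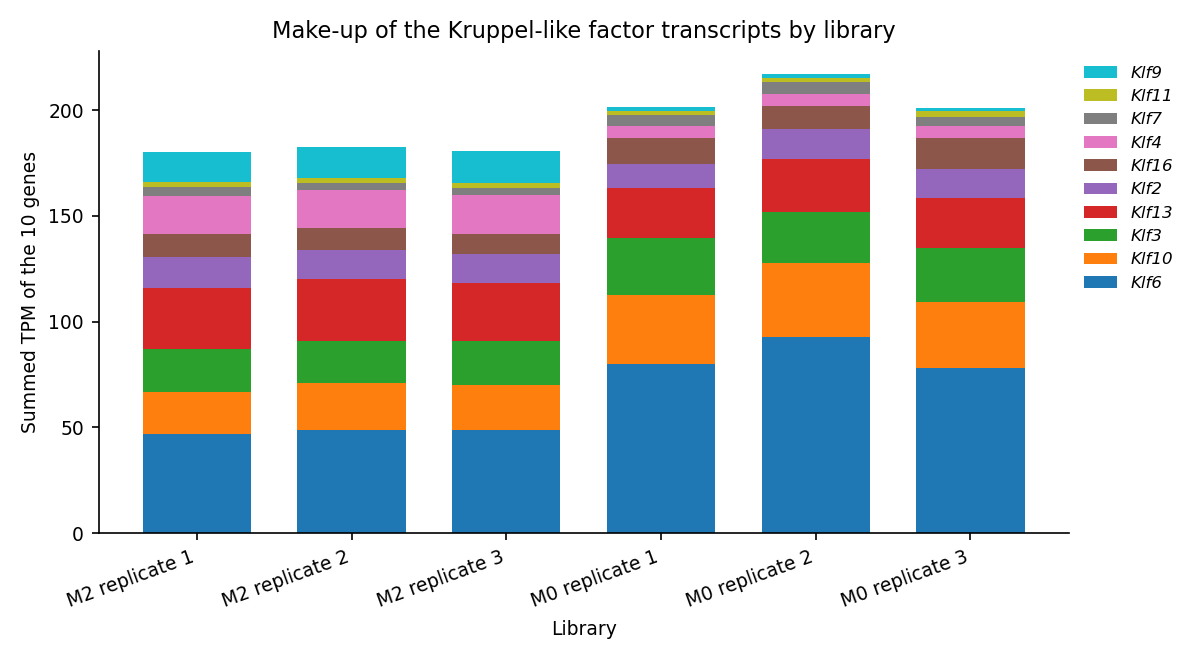
Summed TPM as deposited of the 10 KLF genes in each library, M2 at left and M0 at right, split by gene. The M2 sums lie between 180.1 and 182.7 TPM and the M0 sums between 201 and 217 TPM, a gap that is not kept after median scaling, and the Klf4 and Klf9 segments are wider in M2 while the Klf6 segment is narrower.

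The other KLF genes were all low in TPM. Klf1, Klf5, Klf8, Klf12, Klf14, Klf15 and Klf17 were all under 1 TPM in every library, and none was tested. Klf8, another CtBP-recruiting member, was the highest of them at 0.691 ± 0.112 TPM in M2 and 0.815 ± 0.0675 TPM in M0 (SD, n = 3). These Klf8 levels rested on 238 reads over the M2 libraries and 275 over the M0 libraries, on a transcript of 7535 bases. Klf1, the erythroid member, had 7 reads over the M2 libraries and 8 over the M0 libraries. Klf17 had no read, and a limit of 3 reads over the group allows a mean of up to 0.0182 TPM in M2 and 0.0187 TPM in M0, counting error only.

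The SP proteins share the zinc fingers and GC-box binding of the KLF family. Of 9 SP genes, 3 were tested, of which 0 were higher (background 17.7%), 1 was lower in M2 (background 45.3%) and 2 did not pass. The lower one, Sp2, averaged 9.59 ± 0.0349 TPM in M2 and 11.6 ± 1.17 TPM in M0, a change of -0.25 (SE 0.08, adjusted p = 0.016) that missed the threshold after median scaling (adjusted p = 0.32) and without M0 replicate 1 (adjusted p = 0.064). Sp1 averaged 17.3 ± 0.327 TPM in M2 and 18.3 ± 1.96 TPM in M0, and Sp3 averaged 27.8 ± 0.373 TPM in M2 and 30.4 ± 2.61 TPM in M0. Neither passed, with changes of -0.07 and -0.12 that turned to 0.09 and 0.04 after scaling. Sp4 averaged 0.845 ± 0.102 TPM in M2 and 1.05 ± 0.347 TPM in M0 and was not tested. Sp5 had no read in any library.

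By a Euclidean distance over the 6 libraries of log2(TPM + 1) less the M0 mean, the tested genes nearest to Klf9 were Ddhd1 (0.179), Serpina3g (0.185) and Gpc1 (0.189). Ddhd1, a phospholipase gene, had 34.8 ± 0.881 TPM in M2 and 4.88 ± 0.127 TPM in M0. Serpina3g, a protease inhibitor gene of a family with near-identical members whose reads could be shared, had 5.49 ± 0.413 TPM in M2 and 0.163 ± 0.0643 TPM in M0, a mean 33.6-fold higher against 8.57-fold for Klf9. Gpc1, which encodes the proteoglycan glypican-1, had 77.0 ± 2.59 TPM in M2 and 12.5 ± 0.609 TPM in M0. The genes nearest to Klf6 were Wdr76 (0.0567), Spata13 (0.0582) and Nap1l1 (0.0604), with changes of -0.79, -0.79 and -0.77. Wdr76 had 2.04 ± 0.0966 TPM in M2 and 4.25 ± 0.408 TPM in M0, and Spata13 had 0.853 ± 0.0683 TPM in M2 and 2.21 ± 0.256 TPM in M0. At such levels the added 1 TPM shrinks a change: their mean TPM were 2.09-fold and 2.59-fold lower in M2, against 1.74-fold for Klf6. Nap1l1, a histone chaperone gene, had 29.9 ± 0.254 TPM in M2 and 52.0 ± 4.58 TPM in M0.

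The genes of known inputs to the KLF genes gave mixed counts, each read against backgrounds of 17.7% higher and 45.3% lower in the TPM as deposited, and of 28.8% higher and 28.2% lower after scaling. The median change was -0.15 for the MEK5 to MEF2 genes, 0.16 for the FOXO genes, -0.30 for the TGF-beta genes, 0.07 for the glucocorticoid receptor and its targets and -0.03 for the ubiquitin ligases, against -0.15 over all tested genes. The kinase path from MEK5 to ERK5 and the MEF2 factors is known to drive Klf2 and Klf4 in endothelial cells. Of its 7 tested genes 1 was higher, 3 were lower and 3 did not pass, and after scaling 3 were higher and 2 lower. Mef2a averaged 30.9 ± 0.642 TPM in M2 and 105 ± 13.7 TPM in M0, a change of -1.73 (SE 0.08, adjusted p = 3.6e-08). Klf4 rose, while Klf2 did not pass in the TPM as deposited and was higher after scaling. Mapk7, which encodes ERK5, changed by -0.43 (adjusted p = 2.4e-04) and Mef2c by -0.31 (adjusted p = 0.0059), and the Mef2c call was lost after scaling. Map3k3, a kinase upstream of MEK5, stood at 0.13 with an adjusted p at the threshold, lost with no filter on low values (adjusted p = 0.078) and when any library but M0 replicate 2 was left out. The FOXO factors, known in T cells to act on Klf2, gave 1 higher, 0 lower and 2 not passed of 3 tested, and 2 higher after scaling. Foxo3 averaged 39.0 ± 1.96 TPM in M2 and 26.3 ± 1.22 TPM in M0, a change of 0.55 (SE 0.06, adjusted p = 1.5e-05). Foxo1 stood at 0.16 and Foxo4 at -0.11, and neither passed, though Foxo1 passed after scaling and Foxo4 turned to 0.05.

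Of the TGF-beta genes, the known input to Klf10 and Klf11, 0 of 7 tested were higher, 4 were lower and 3 did not pass, and after scaling 2 were higher and 3 lower. Tgfbr1, the type I receptor, averaged 19.6 ± 0.517 TPM in M2 and 43.8 ± 5.88 TPM in M0, a change of -1.11 (SE 0.08, adjusted p = 1.2e-06). Smad3, a signal-carrying SMAD, changed by -1.03 and Smad7, the inhibitory SMAD, by -1.06. Tgfbr2 changed by -0.30 and missed the threshold after scaling (adjusted p = 0.054). These lower values stood beside a lower Klf10 and a Klf11 that did not pass.

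Of the glucocorticoid receptor and its known targets, the group to which Klf9 also belongs, 3 of 6 tested were higher and 3 lower, before and after scaling. Sgk1, a kinase gene, averaged 46.9 ± 0.375 TPM in M2 and 31.9 ± 0.727 TPM in M0, a change of 0.55. Per1, a clock gene, changed by 0.50, and Tsc22d3, which encodes the anti-inflammatory protein GILZ, by 0.47. Dusp1, a phosphatase gene, averaged 25.1 ± 0.310 TPM in M2 and 44.7 ± 0.739 TPM in M0, a change of -0.81. The receptor gene Nr3c1 changed by -0.45 (adjusted p = 0.0023) and Fkbp5 by -0.32.

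Among ubiquitin ligases that act on KLF proteins, 3 of 7 tested were higher, 2 lower and 2 did not pass, and after scaling 3 were higher and 1 lower. Wwp1, a ligase for KLF2, averaged 33.7 ± 1.30 TPM in M2 and 58.4 ± 9.13 TPM in M0, a change of -0.76. Vhl changed by 0.52 and Smurf1 by 0.39. Siah1a, at -0.33, missed the threshold after scaling (adjusted p = 0.074).

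Over the 3 lists of genes for KLF cofactors, 11 of 22 tested genes were lower, or 6 of 22 after scaling, and 1 was higher, or 3 after scaling. The backgrounds were 45.3% and 28.2% lower and 17.7% and 28.8% higher, so the shares of lower genes were near those of all tested genes. The median change was -0.23 for CtBP and its partners, -0.19 for the SIN3 complex and -0.14 for the coactivators, against -0.15 over all tested genes. Of CtBP and its partners, with which KLF3 works, 1 of 7 tested was higher, 5 were lower and 1 did not pass, and after scaling 1 was higher and 3 lower. Hdac1 changed by -0.76, Ctbp2 by -0.69 and Hdac2 by -0.54, and Ctbp2 averaged 16.3 ± 0.663 TPM in M2 and 26.9 ± 1.62 TPM in M0. The demethylase gene Kdm1a, at -0.23, missed the threshold after scaling. Ctbp1 was the gene that was higher, with 107 ± 1.63 TPM in M2 and 98.3 ± 2.23 TPM in M0, a change of 0.12 (adjusted p = 0.021, limma). Its call was lost when any M2 library or M0 replicate 1 was left out. The SIN3 list left out the deacetylase genes Hdac1 and Hdac2, which were counted with CtBP. Of the SIN3 genes listed, 0 of 11 tested were higher, 5 lower and 6 not passed, and after scaling 1 was higher and 2 lower. Sap30 averaged 23.3 ± 0.611 TPM in M2 and 40.3 ± 2.09 TPM in M0, a change of -0.77, and Rbbp4 changed by -0.37. Suds3 (-0.26) and Rbbp7 (-0.21) missed the threshold after scaling. Of the acetyltransferase coactivators, 0 of 4 tested were higher, 1 was lower and 3 did not pass, and after scaling 1 was higher and 1 lower. Kat2a changed by -0.65, Ep300 stood at -0.20, Crebbp at 0.06 and Kat2b at -0.09. Crebbp passed after scaling, at 0.21, and Kat2b turned to 0.07.

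**Figure D4:**
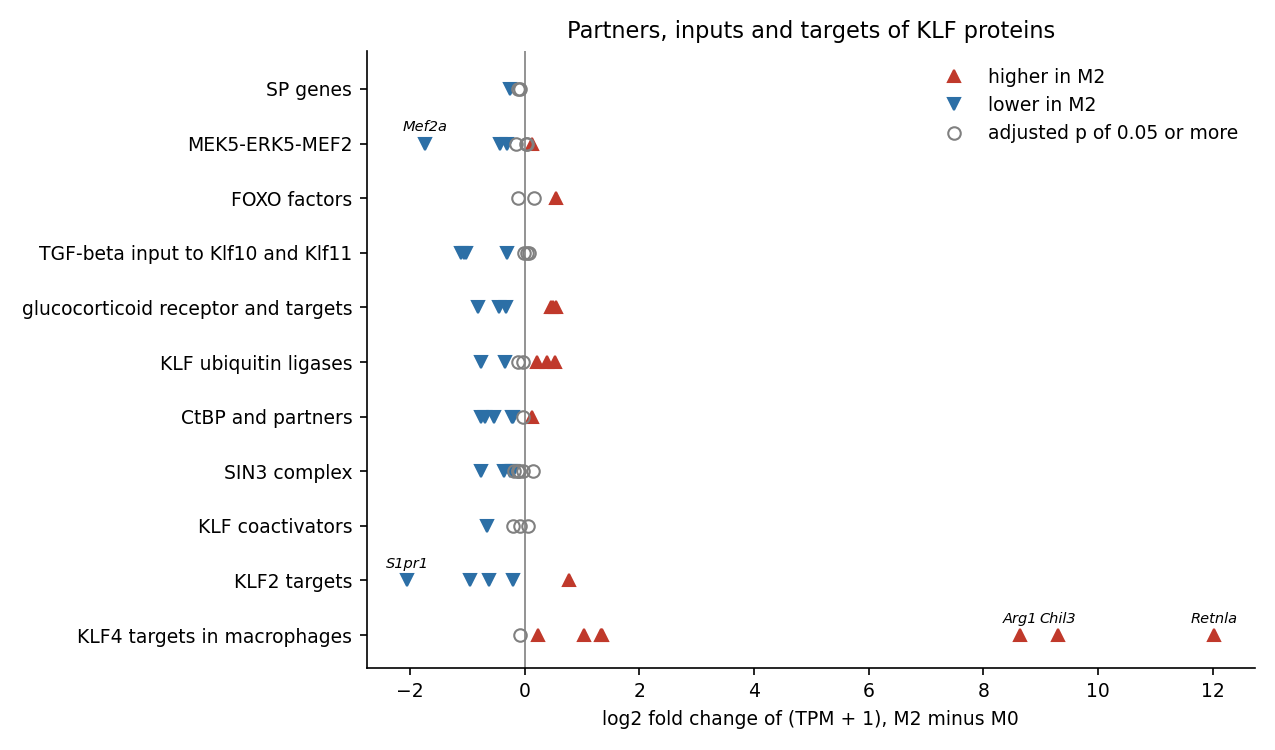
Log2 fold change of TPM + 1, M2 minus M0, of each tested gene on the lists of SP genes and of KLF inputs, cofactors and targets; red triangles passed as higher, blue triangles as lower, and open circles had an adjusted p of 0.05 or more. Farthest to the right are Arg1, Chil3 and Retnla on the list of KLF4 targets, and farthest to the left are S1pr1 and Mef2a.

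Of genes known as KLF2 targets in T cells or endothelium, 1 of 5 tested was higher and 4 lower in M2, and after scaling 1 was higher and 3 lower. The backgrounds were 17.7% higher and 45.3% lower as deposited, and 28.8% and 28.2% after scaling, and the median change of the 5 was -0.61, against -0.15 over all tested genes. S1pr1, the sphingosine phosphate receptor gene, averaged 6.45 ± 0.650 TPM in M2 and 29.7 ± 0.886 TPM in M0, a change of -2.05 (SE 0.07, adjusted p = 5.5e-09). Thbd, which encodes thrombomodulin, changed by -0.96 and the integrin gene Itgb7 by -0.61. Cdkn1a, which encodes the cell cycle inhibitor p21, averaged 504 ± 9.32 TPM in M2 and 294 ± 15.8 TPM in M0, a change of 0.78. Klf2 itself overlapped between the groups in the TPM as deposited, and it passed as higher after median scaling, at 0.25 (adjusted p = 0.021, limma).

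Of 8 genes that KLF4 is known to act on in macrophages, 7 were higher (background 17.7%, or 28.8% after scaling), 0 lower and 1 did not pass, before and after scaling, and their median change was 1.34. The list holds the standard IL-4 response genes, so its count is not independent of the treatment. Arg1 averaged 1009 ± 7.40 TPM in M2 and 1.55 ± 0.328 TPM in M0, Chil3 2900 ± 65.5 TPM in M2 and 3.61 ± 0.128 TPM in M0, and Retnla 4859 ± 135 TPM in M2 and 0.172 ± 0.200 TPM in M0. Zc3h12a, which encodes the RNase MCPIP1 and is known to be induced through KLF4, averaged 22.5 ± 0.791 TPM in M2 and 8.24 ± 0.648 TPM in M0, a change of 1.35 (SE 0.07, adjusted p = 7e-08). The change of Klf4 was 1.51, and a link between Klf4 and Zc3h12a in these cells was not tested.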

How the data were processed

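Gene expression was measured by RNA sequencing in 6 libraries, 3 M2 and 3 M0. Groups and replicate numbers came from sample titles, matched to column names. The submitters' processing notes name HOMER 4.11.1, STAR, DESeq2, bcl2fastq and the mm10 build, and settings are not given in the sources used here. The authors deposited TPM per gene and library, for 1 RefSeq transcript per gene per the file headers. A second table deposited by the authors gives log2 values per library, a log2 fold change, and a p-value with its adjusted p-value. Its fold changes had the sign of M2 minus M0 in 99.6% of tested genes.

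For this re-analysis, TPM steps gave 16913185 to 19019896 whole reads per library (99.8% to 99.9% of values whole within 0.1 read), 89.8% to 90.9% of the header totals. The 11235 genes that reached 1 TPM in 3 or more libraries were tested on log2(TPM + 1) by limma 3.58.1 in R 4.3.3 (trend, robust, two-sided), with Benjamini-Hochberg adjustment over all of them. For median scaling, the TPM of a library were divided by its median-of-ratios factor. limma-voom on the recovered reads gave 2333 genes higher in M2 and 4619 genes lower in M2. In all, 14 alternative settings were tried. The test was run on simulated data first. Exons and overlaps came from GENCODE on mm10, and promoter windows from RefSeq. Genes with near-identical copies may share reads, and the counting strand is not given in the sources used here.

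The members and gene lists were chosen with earlier results of these data known. Named were all 10 KLF genes, other KLF or SP genes with a mean of at least 1 TPM in a group, up to 4 passing genes per list by size of change, every gene of a list of 5 or fewer, and the 3 nearest genes of Klf9 and Klf6. Ctbp1, Fkbp5, Nr3c1, the KLF genes under 1 TPM, Sp5 and the marker genes named fall outside this rule and were chosen after their values were seen.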

Additional observations from a re-analysis of the deposited data

How the results depend on the processing

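Klf4, Klf6, Klf7, Klf9, Klf10 and Klf13 kept their direction and passed under every alternative in which they were tested. The count of tested genes higher in M2 was 1983, against 3234 with median-scaled TPM and 3318 with the authors' log2-scale values. The count lower was 5088, against 3163 and 3323. The authors' values rest on another transcript for 4515 of the 25124 genes, so they differ by more than scale. The number of KLF genes lower in M2 was 5, against 3 with median-scaled TPM. Leaving out 1 library at a time gave 1743 to 2217 genes higher, 4457 to 5239 lower, 3 to 3 KLF genes higher and 4 to 5 lower. Klf16 was the KLF gene that lost its call when a library was left out. Sp1 reversed to 0.0913 with median-scaled TPM and 0.0893 with the authors' values, Sp3 to 0.0445 and 0.0414, Kat2b to 0.0665 and 0.0647, and Foxo4 to 0.0501 and 0.0465. With 1 library left out, Sp1 ran from -0.128 to 0.0082 and Kat2b from -0.151 to 0.0098, both positive without M0 replicate 2, and Crebbp from -0.0062 without M0 replicate 3 to 0.125. None of these genes passed in the TPM as deposited, and the cause was not tested. Deviations of same-numbered libraries correlated at 0.00495, -0.00487 and -0.0428. Because the M2 libraries differed by little more than counting noise, these values cannot show whether the replicate numbers pair the libraries. With the replicate number as a block, 1953 genes were higher and 4963 lower, with 3 KLF genes higher and 5 lower, and the adjusted p of Map3k3 was 0.086. Of 806 repeats over 58 named genes, 756 kept direction and side of the threshold, 30 lost the call, 9 gained it and 11 reversed. Klf7 and Klf11 rested on 430 reads or fewer over each group.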
